A study of Mus musculus with 48 samples.

Results

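The renin-angiotensin and endothelin systems set vascular tone and salt handling in the kidney, and 8 of their genes were followed here around the clock: *Ren1*, *Agt*, *Ace* and *Agtr1a* of the renin-angiotensin system, and *Edn1*, *Ece1*, *Ednra* and *Ednrb* of the endothelin system. They were taken by symbol, and all 8 were among the 12423 genes measured in both assays and among the 11863 genes tested. The kidneys came from 48 male C57BL/6JRj mice aged 11 to 12 weeks, kept under 12 h light and 12 h darkness and killed every 2 h from ZT00 (*Zeitgeber* time, lights-on) to ZT22, with lights-off at ZT12. Lysates of 2 mice were pooled, with 2 replicate pools at each of the 12 timepoints, and each of the 24 pools gave a ribosome profiling library (RPF-seq, footprints of translating ribosomes) and a total RNA library (RNA-seq). The animals carried no mutation or treatment in the labels, so that time of day was what differed between groups, and the pools mixed all cell types of the organ. In such tissue, fewer cells of a type and less RNA per cell cannot be told apart.

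Renin is an aspartyl protease that juxtaglomerular cells in the wall of the afferent arteriole store and release. It cuts angiotensinogen (*Agt*), a secreted precursor, to angiotensin I, which angiotensin-converting enzyme (*Ace*), a peptidase on endothelium and on the brush border of the proximal tubule, turns into angiotensin II, and the type 1 receptor (*Agtr1a* in rodents) carries the response to that peptide. Endothelin-1 (*Edn1*) is made as a long precursor that endothelin-converting enzyme (*Ece1*), a membrane metalloprotease, activates, and it acts through the type A receptor (*Ednra*), found mainly on smooth muscle and mesangial cells, and the type B receptor (*Ednrb*), found on endothelium and on the collecting duct, where it lowers sodium reabsorption.

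The deposited values are RPKM, reads on the coding sequence divided by its length and by the depth of the library. Steps between the values gave the depth by which each library had been divided, 9859600 to 33575400 reads (median 16491000) for RNA-seq and 15563800 to 35009000 reads (median 22196200) for RPF-seq. Libraries of the dark phase were shallower than those of the light phase, with medians of 13395600 against 18785800 reads for RNA-seq and 20191800 against 26087200 for RPF-seq. The second RPF-seq pool at ZT04 listed 162 genes at 0, but no member was at 0 in any library. The markers of adrenal cortex (5 genes) were absent from both assays, and those of proximal tubule, podocyte, endothelium and collecting duct were present in full. Blood markers (4 of 5 listed) were present and uneven, with summed RNA of 54.4 to 373 RPKM (median 92.2) and a fitted 24-h fold of 1.97, and adipocyte markers (3 of 4 listed) summed to 0.53 to 9.03 RPKM with a fitted fold of 3.66. Their part in the results was not tested. All 15 clock genes of a fixed list had a 24-h rhythm past the thresholds in both assays.

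*Ednrb* and *Ece1* were the members with a 24-h component, so the sequence in front of their annotated RefSeq starts (the first start for *Ece1*) is shown here, in the direction of the gene and from the mouse genome (GRCm38.p6). The 250 bases of *Ednrb* lie at chr14:103843702-103843951 on the minus strand, within the *Ednrb* gene of GENCODE vM21 and outside its exons, before a RefSeq start that is 701 bases from the start of that gene. The 250 bases of *Ece1* lie at chr4:137861987-137862236 on the plus strand, directly before the gene.
*Ednrb*: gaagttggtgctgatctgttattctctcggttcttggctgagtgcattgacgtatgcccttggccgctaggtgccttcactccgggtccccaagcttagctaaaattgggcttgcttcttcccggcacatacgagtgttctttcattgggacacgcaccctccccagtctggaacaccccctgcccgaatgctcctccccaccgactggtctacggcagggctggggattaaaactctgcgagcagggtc
*Ece1*: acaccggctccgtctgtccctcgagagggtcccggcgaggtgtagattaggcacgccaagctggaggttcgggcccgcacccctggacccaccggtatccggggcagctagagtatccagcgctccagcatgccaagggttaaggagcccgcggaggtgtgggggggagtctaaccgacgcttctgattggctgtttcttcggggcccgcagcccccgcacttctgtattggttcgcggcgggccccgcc
Both strands of such windows were searched for CACGTG (the E-box that CLOCK:ARNTL binds), TTATGNAA (a D-box core), AGGTCA (the motif bound by nuclear receptors such as REV-ERB and ROR) and TGACGTCA (a cyclic AMP response element). None of these stood in the windows printed above, and none in those of *Ren1*, *Agt*, *Edn1* or *Ednra*. Of 32851 mouse windows of this length, 6.02% held the E-box, 3.07% the D-box core, 14.02% AGGTCA and 1.55% the cyclic AMP element. An E-box, in capitals, stood 90 bases before the third of 4 annotated *Ece1* starts, at chr4:137913458-137913483 on the plus strand, in a segment that GENCODE vM21 lists as an untranslated exon of another *Ece1* transcript.
*Ece1*, start with the E-box: ctgggagaggCACGTGccccgccggc
The second of 2 annotated *Ace* starts, 7244 bases inside the gene, had AGGTCA 50 bases before it, at chr11:105975129-105975154 on the plus strand, in an intron.
*Ace*, start with AGGTCA: ttgctctatgAGGTCAcactgcaggc
These matches are descriptions of letters in a window, and the reference used held no promoter entry for *Agtr1a*.

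Levels differed widely between members (the plot of RPKM by timepoint). In RNA-seq, *Ace* was the most abundant, with a median of 130 RPKM over 24 pools, followed by *Ren1* (51.4), *Ece1* (48.9), *Agt* (40.2), *Agtr1a* (24.4), *Ednrb* (13.8), *Ednra* (1.78) and *Edn1* (1.43). *Ace* exceeded *Ren1* in 24 of 24 pools without overlap of their ranges, as did *Agtr1a* over *Ednrb* and *Ednrb* over *Ednra*. *Ren1* exceeded *Ece1* in 16 of 24 pools and *Ednra* exceeded *Edn1* in 17 of 24, so these neighbours were not set apart from each other. In RPF-seq the order changed at the top, with *Ren1* first at a median of 129 RPKM, then *Ace* (106), *Agt* (79.0), *Ece1* (67.7), *Agtr1a* (36.6), *Ednrb* (16.3), *Ednra* (3.41) and *Edn1* (1.59). *Ren1* footprints exceeded those of *Ace* in 19 of 24 pools. Among all genes measured, the median *Ace* transcript level stood at percentile 92.4 and that of *Edn1* at percentile 9.06, so the ligand and its type A receptor were rare messages in these lysates.

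**Figure D1:**
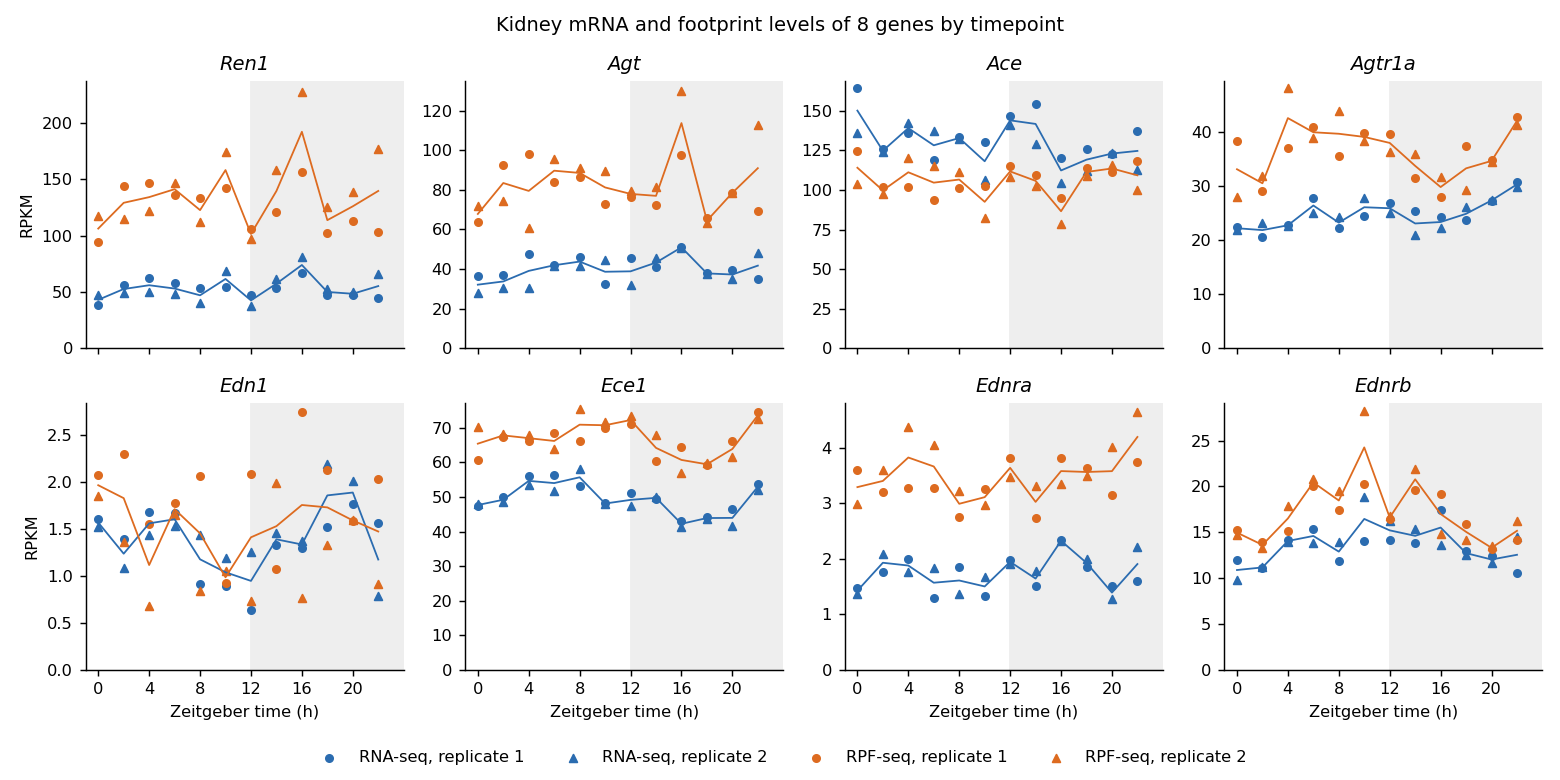
RPKM of the 8 genes against Zeitgeber time in hours, with circles for replicate 1, triangles for replicate 2 and lines through the means of the 2 pools (blue RNA-seq, orange RPF-seq, grey the dark phase). *Ren1* and *Agt* spread most between pools of the same timepoint among the abundant members, and *Ednrb* was highest around ZT10.

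The depth behind these values set how far each could be read. The scale put a median of 13 reads behind an *Edn1* RNA-seq value (5 to 23) and 19 behind an RPF-seq value (8 to 44), against 38 and 99 reads for *Ednra*, 289 and 503 for *Ednrb*, 432 and 947 for *Agtr1a*, 933 and 2579 for *Agt*, and 925 and 3327 for *Ren1*. For *Ace* and *Ece1* the coding length used by the authors differed from the annotation at hand and their reads are known only roughly. The SD between replicate pools was 0.87 times the counting error for *Edn1* and 0.83 times for *Ednra* in RNA-seq, so that their scatter there was no larger than sampling alone gives. In RPF-seq it was 2.04 times for *Edn1*, beyond what depth gives, and 1.24 times for *Ednra*. It was 4.73 times the counting error for *Ren1* RNA, 4.91 times for *Agt* RNA and 8.34 times for *Ace* RNA, and 10.8, 8.52 and 9.77 times for their footprints. These 3 genes thus differed between pools of the same timepoint far beyond what depth gives, though the ratios of *Ace* are approximate. A high ratio also reflects many reads. The SD of *Ace*, 0.13 in log2 for RNA and 0.14 for footprints, was below that of *Ednrb* (0.18 and 0.15, at 2.01 and 2.32 times the counting error).

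Whether the systems followed time of day was asked with a 24-h cosine fitted to log2(RPKM + 0.1), tested across all genes by limma's moderated F test with Benjamini-Hochberg adjustment. A rhythm needed an adjusted p under 0.05 together with a fitted peak that was 1.5 times the trough or more. In RNA-seq, 0 of 8 members passed, where 10.2% of all genes did. In RPF-seq 0 of 8 passed, against 7.58%, and for translation efficiency (TE, the ratio of RPF to RNA RPKM within a pool) 0 of 8, against 3.74%. At the adjusted p alone, 2 of 8 members (*Ednrb* and *Ece1*) had a 24-h component in their RNA, where 48.6% of all genes did. For footprints it was 1 of 8 (*Ednrb*) against 30.9%, and for TE 0 of 8 against 17.1%. At an unadjusted p under 0.05 the same members passed in RNA-seq and RPF-seq, and *Agtr1a* in TE. The shares of all genes at that cutoff were not counted, and cannot be smaller than those at the adjusted p. The median fitted fold of the 8 members was 1.17 for RNA, 1.13 for footprints and 1.13 for TE, beside 1.20, 1.18 and 1.19 over all genes tested. Rhythms were also simulated in 50 genes of each fold among 11863. In RNA-seq, 84% of simulated 1.5-fold rhythms and 48% of 1.25-fold rhythms were recovered at the adjusted p alone. For footprints these shares were 72% and 20%, and for TE 48% and 26%. Many more genes passed in the data (48.6% in RNA-seq), so the adjustment was stricter in the simulation. The shares therefore do not give the power reached here.

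**Figure D2:**
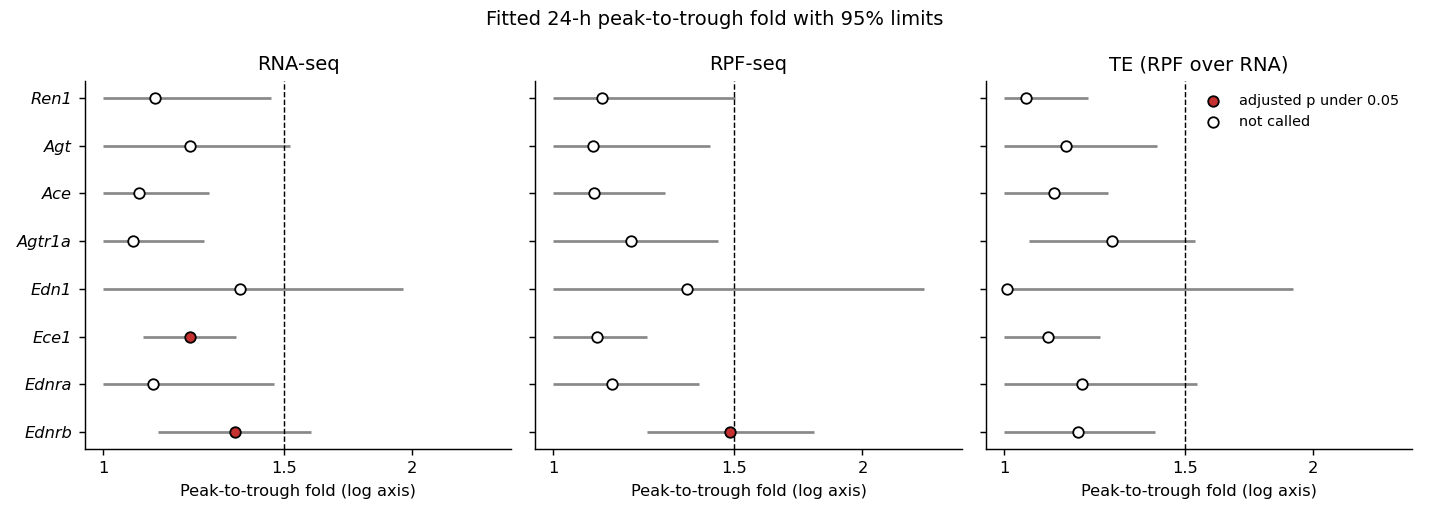
Peak-to-trough fold of the fitted 24-h curve (log axis) with 95% limits for each gene in RNA-seq, RPF-seq and TE, filled where the adjusted p was under 0.05, with a dashed line at 1.5-fold. Every point lies left of the line, with *Ednrb* in RPF-seq (1.49-fold) nearest to it, and *Edn1* has the widest limits, up to 2.30-fold in RPF-seq.

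*Ednrb* (ENSMUSG00000022122, chr14:103814625-103844402 in GENCODE vM21 on GRCm38, minus strand), the type B endothelin receptor, had the clearest daily course. Its RNA ranged from 9.78 RPKM (ZT00, replicate 2) through a median of 13.8 to 18.8 RPKM (ZT10, replicate 2), and its footprints from 13.1 RPKM (ZT20, replicate 1) through 16.3 to 28.2 RPKM (ZT10, replicate 2). At ZT10 the pools had 14.1 and 18.8 RPKM in RNA-seq, with footprints at 20.3 and 28.2 RPKM, whereas at ZT02 they had 11.1 and 11.2, and 13.9 and 13.3. The ZT10 pools lay above the ZT02 pools in both assays without overlap, a pair of timepoints picked after their values were seen. The fitted curve peaked at ZT11.5 (SE 0.85 h) in RNA-seq with a fold of 1.34 (95% limits 1.13 to 1.59, limma adjusted p = 0.00259), and at ZT10.0 (SE 0.69 h) in RPF-seq with a fold of 1.49 (1.23 to 1.79, adjusted p = 0.000694), near the change from light to dark. With timepoint as a factor in place of the cosine, the RNA of *Ednrb* did not pass (adjusted p = 0.081). TE of *Ednrb* had a fitted fold of 1.18 (adjusted p = 0.172). The RPF fold moved between 1.40 and 1.54 when each of the 24 pools was left out in turn, reached 1.5 or more in 5 of these fits (without replicate 1 at ZT00, ZT08 or ZT12, or replicate 2 at ZT12 or ZT22), and stayed under an adjusted p of 0.05 in all of them. With the 12 pools of replicate 2 alone the RPF fold was 1.62 (limma adjusted p = 0.0668), where 3.88% of all genes passed in RPF-seq. With the pools of replicate 1 alone the RNA fold was 1.25 (adjusted p = 0.153).

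*Ece1* (ENSMUSG00000057530, chr4:137862237-137965229 in GENCODE vM21 on GRCm38, plus strand), the converting enzyme that activates endothelin-1, had the most even replicates of the set, and its largest difference between pools of a timepoint was 1.12-fold in RNA-seq. Its RNA ran from 41.4 RPKM (ZT16, replicate 2) through 48.9 to 58.2 RPKM (ZT08, replicate 2). The pools at ZT04, ZT06 and ZT08 had 51.8 to 58.2 RPKM, while those at ZT16, ZT18 and ZT20 had 41.4 to 46.4 RPKM, with no overlap, and these timepoints too were picked after seeing the values. The fit placed the peak at ZT5.7 (SE 0.79 h) with a fold of 1.21 (1.09 to 1.35, limma adjusted p = 0.00125). With the pools of replicate 2 alone the fold was 1.23 (adjusted p = 0.113), where 10.1% of all genes passed in RNA-seq. Footprints of *Ece1* ran from 57.0 to 75.6 RPKM with a fitted fold of 1.10 (1.00 to 1.23, adjusted p = 0.194). The ZT22 pools, at 53.8 and 52.1 RPKM in RNA-seq, with footprints at 74.6 and 72.7 RPKM, were high in the dark phase, outside the course of a single cosine.

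Markers of endothelium and of most other cell types listed moved with time of day as well, and *Ednrb* and *Ece1* are both expressed by endothelium. Of 10 endothelial markers, 9 passed at the adjusted p alone for RNA and 6 for footprints, where 48.6% and 30.9% of all genes did. The collecting duct list had 5 of 7 for RNA and 6 of 7 for footprints, and the proximal tubule list 7 of 8 and 3 of 8. Loop and distal tubule markers had 5 and 3 of 5, podocyte markers 4 and 2 of 5, and renin and mural cell markers 7 and 6 of 9. Leukocyte markers had 3 and 0 of 6, blood markers 0 and 0 of 4, and adipocyte markers 2 and 2 of 2. *Cdh5* (VE-cadherin) had a fold of 1.41 with a peak at ZT4.2 and *Plvap*, of fenestrated endothelium, 1.38 at ZT6.2, whereas *Flt1* and *Tek*, both endothelial receptor kinases, peaked at ZT20.2 and ZT19.7. The summed RNA level of the endothelial list ran from 323 to 409 RPKM with a fitted fold of 1.10 and a peak at ZT3.9. The collecting duct list, the other site of *Ednrb*, ran from 304 to 446 RPKM with a fold of 1.21 and a peak at ZT14.3. The part of these cells in the courses of *Ednrb* and *Ece1* was not tested.

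The RNA profiles most like that of *Ednrb* over the 24 pools, out of all genes tested, were those of *Abca6* (r = 0.77), *Slc44a2* (r = 0.77) and *Nt5c2* (r = 0.77), and those most like *Ece1* were *Dtx3* (r = 0.87), *Stat5a* (r = 0.84) and *Pcdhgc4* (r = 0.84). For footprints the same pairs had r of 0.55, 0.55 and 0.57 with *Ednrb* and 0.24, 0.39 and 0.56 with *Ece1*. These are descriptions over libraries that share time of day and depth.

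*Ren1* (ENSMUSG00000070645, chr1:133350510-133360325 in GENCODE vM21 on GRCm38, plus strand), the renin gene, had no 24-h component that passed the test but spread widely between pools. Its RNA ran from 37.8 RPKM (ZT12, replicate 2) through a median of 51.4 to 81.5 RPKM (ZT16, replicate 2), and its footprints from 94.8 RPKM (ZT00, replicate 1) through 129 to 228 RPKM (ZT16, replicate 2). At ZT22 the replicates had 44.6 and 65.9 RPKM in RNA-seq, with footprints at 103 and 177 RPKM, its widest gap between pools of a timepoint in both assays. The fitted fold was 1.12 (1.00 to 1.46, limma adjusted p = 0.584) for RNA and 1.11 (1.00 to 1.503, adjusted p = 0.738) for footprints. A rhythm as large as these upper limits could have gone unseen.

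*Agt* (ENSMUSG00000031980, chr8:124556534-124569706 in GENCODE vM21 on GRCm38, minus strand), the precursor of the angiotensins, ran from 27.9 RPKM (ZT00, replicate 2) through 40.2 to 51.1 RPKM (ZT16, replicate 1) in RNA-seq and from 60.9 RPKM (ZT04, replicate 2) through 79.0 to 130 RPKM (ZT16, replicate 2) in RPF-seq. Both ZT16 pools were above all other pools in RNA-seq, at 51.1 and 50.7 RPKM. The same pools had the highest summed RNA of blood markers, 373 and 326 RPKM against a median of 92.2. Over 12 timepoints the replicate difference of *Agt* RNA went in the direction of the blood sum in 10 and of the collecting duct sum in 10. For *Agt* footprints it was 7 and 7. *Ece1* went with the blood sum in 10 timepoints in RNA-seq and 9 in RPF-seq, and the other members in 6 to 8 and 4 to 8. The part of these cells in the *Agt* values was not tested. Its fitted RNA fold was 1.22 (1.00 to 1.52, limma adjusted p = 0.153) with a peak at ZT13.1, and leaving out replicate 2 at ZT12 gave 1.28 (adjusted p = 0.0408). Its footprints had a fitted fold of 1.09 (adjusted p = 0.771).

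*Ace* (ENSMUSG00000020681, chr11:105967945-105989964 in GENCODE vM21 on GRCm38, plus strand), the converting enzyme, had a CV of 11.1% over the 24 pools in RNA-seq and 10.6% in RPF-seq, where *Ren1* had 19.3% and 22.9%. Its RNA ran from 105 RPKM (ZT16, replicate 2) through 130 to 165 RPKM (ZT00, replicate 1), and its footprints from 78.5 RPKM (ZT16, replicate 2) through 106 to 125 RPKM (ZT00, replicate 1), so the same pools held the extremes in both assays. The fitted folds were 1.08 (1.00 to 1.27, limma adjusted p = 0.508) and 1.09 (1.00 to 1.28, adjusted p = 0.479). Its TE was 0.905 and 0.967 at ZT18, 0.909 and 0.938 at ZT20 and 0.865 and 0.890 at ZT22, above all pools of the other timepoints, which had 0.709 to 0.846. The 24-h fit of TE had a fold of 1.12 (1.00 to 1.26, adjusted p = 0.184), and with a 12-h harmonic added the fold was 1.24 (adjusted p = 0.0363). These timepoints were picked after their values were seen.

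*Agtr1a* (ENSMUSG00000049115, chr13:30336441-30382867 in GENCODE vM21 on GRCm38, plus strand), the angiotensin II receptor, ran from 20.6 RPKM (ZT02, replicate 1) through 24.4 to 30.7 RPKM (ZT22, replicate 1) in RNA-seq, where both ZT22 pools (30.7 and 29.9 RPKM) were above all others. Footprints ran from 27.9 RPKM (ZT00, replicate 2) through 36.6 to 48.0 RPKM (ZT04, replicate 2). The fitted RNA fold was 1.07 (1.00 to 1.26, limma adjusted p = 0.613) and the RPF fold 1.19 (1.00 to 1.44, adjusted p = 0.174). With timepoint as a factor its RNA passed (adjusted p = 0.0291). Its TE had a fold of 1.27 (1.06 to 1.53) with a peak at ZT6.3, next to the threshold at an adjusted p of 0.0515. That value crossed to either side as single pools were left out (adjusted p 0.0276 to 0.0989), under 0.05 in 5 of 24 fits (without replicate 1 at ZT00, ZT06 or ZT18, or replicate 2 at ZT10 or ZT14).

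*Edn1* (ENSMUSG00000021367, chr13:42301476-42307990 in GENCODE vM21 on GRCm38, plus strand), the ligand, ran from 0.639 RPKM (ZT12, replicate 1) through 1.43 to 2.19 RPKM (ZT18, replicate 2) in RNA-seq and from 0.678 to 2.73 RPKM in RPF-seq. At ZT16 its footprints were at 2.73 and 0.768 RPKM, 3.56-fold apart between replicates and the widest gap of any member. The fitted folds of 1.36 in RNA-seq (1.00 to 1.96, limma adjusted p = 0.175) and 1.35 in RPF-seq (1.00 to 2.30, adjusted p = 0.479) had the widest limits of the set. Replicate 2 at ZT22 (0.780 RPKM against 1.56 in replicate 1) decided the RNA call, since without it the fold was 1.54 with an adjusted p of 0.0208. With the pools of replicate 1 alone the fold was 1.83 (adjusted p = 0.0314) and with those of replicate 2 alone 1.21 (adjusted p = 0.782). A rhythm of *Edn1* was thus not settled, with few reads in both assays and footprint scatter at 2.04 times the counting error.

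*Ednra* (ENSMUSG00000031616, chr8:77663031-77724464 in GENCODE vM21 on GRCm38, minus strand), the type A receptor, ran from 1.27 RPKM (ZT20, replicate 2) through 1.78 to 2.33 RPKM (ZT16, replicate 1) in RNA-seq and from 2.73 through 3.41 to 4.64 RPKM (ZT22, replicate 2) in RPF-seq. Its fitted folds were 1.12 (1.00 to 1.47, limma adjusted p = 0.635) and 1.14 (1.00 to 1.39, adjusted p = 0.354), and its ZT16 pools, at 2.33 and 2.31 RPKM, were the highest in RNA-seq.

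How densely the messages were occupied by ribosomes was compared by TE (the plot of TE by gene). Against the median gene of the same pool, 4 of 8 members had a TE that was at least 1.5-fold higher at an adjusted p under 0.05, and 0 of 8 one that was 1.5-fold lower, where 20.6% and 26% of all genes did. *Ren1* was at 2.63 times the median gene (log2 1.39, SE 0.03, limma adjusted p = 5.67e-25), at percentile 98.4 of all genes. *Agt* was at 2.18 times (log2 1.12, SE 0.04, adjusted p = 1.36e-19) and *Ednra* at 2.06 times (log2 1.04, SE 0.05, adjusted p = 2.85e-16). *Agtr1a* was at 1.54 times (log2 0.62, SE 0.04, adjusted p = 1.84e-14), close to the fold threshold, and with an RPKM minimum of 2 it stood under it, at log2 0.57. These 4 genes were above the median gene in 24 of 24 pools.

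*Ece1* (1.43 times) and *Ednrb* (1.33 times) were also above the median gene in 24 of 24 pools, by less than 1.5-fold. *Ace* was the member below it, at 0.859 times the median gene (log2 -0.22, SE 0.02, limma adjusted p = 3.94e-09) and lower in 23 of 24 pools. *Edn1* had 1.12 times (adjusted p = 0.211), with single pools from 0.473 to 3.26. Raw TE had a median of 2.46 for *Ren1* (2.17 to 3.03), 2.00 for *Agt* (1.67 to 2.58), 1.94 for *Ednra* (1.45 to 3.17) and 0.789 for *Ace* (0.709 to 0.967). *Ren1* exceeded *Agt* in 22 of 24 pools, while *Agt* exceeded *Ednra* in 11 of 24, so that pair had no order. The 2 secreted proteins *Ren1* and *Agt* and the receptor *Ednra* were highest in TE among the members, and the ligand *Edn1*, also secreted, was not among them at this depth. TE compares separately prepared libraries, and any difference in capture between footprints and RNA along a gene enters it.

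**Figure D3:**
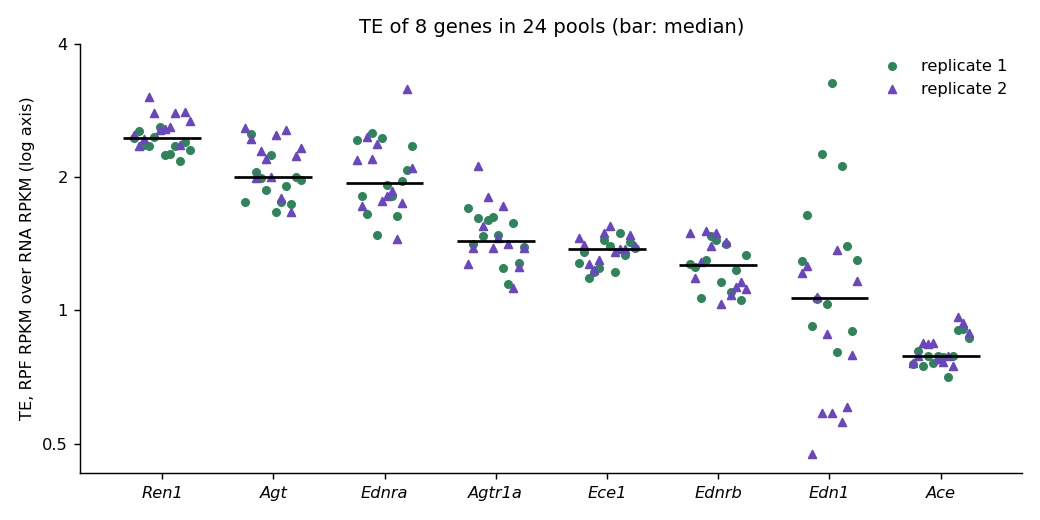
TE (RPF RPKM over RNA RPKM, log axis) of each gene in 24 pools, with circles for replicate 1, triangles for replicate 2 and a bar at the median. *Ren1* lies above 2 in every pool and *Ace* below 1 in every pool, while *Edn1* spreads from 0.473 to 3.26.

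Since *Ren1*, *Agt* and *Ace* differed between pools of the same timepoint, the difference of replicate 2 from replicate 1, in log2, was compared between RNA-seq and RPF-seq, whose libraries were made separately from the same lysate pool. This comparison was added after the values had been seen. Over 12 timepoints, 2 of 8 members had correlated differences at an adjusted p under 0.05 over all genes, where 2.87% of all genes did. *Ren1* had Pearson's r = 0.92 (permutation p = 6.0e-05, adjusted p = 0.00828) and Spearman's rho = 0.80 (p = 0.00288, adjusted p = 0.0952), with the same sign in 11 of 12 timepoints and r = 0.90 without the 2 timepoints farthest from the median. *Ace* had r = 0.92 (permutation p = 2.0e-05, adjusted p = 0.00465) and rho = 0.94 (p = 6.0e-05, adjusted p = 0.0166), again with the same sign in 11 of 12 and r = 0.86 without the 2 farthest. The permutations used 100000 resamples and were two-sided.

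*Agt* (r = 0.75, rho = 0.63, adjusted p = 0.0991 and 0.274), *Ednrb* (r = 0.76, rho = 0.65, adjusted p = 0.0779 and 0.245) and *Ece1* (r = 0.76, rho = 0.69, adjusted p = 0.0901 and 0.205) did not pass the permutation test over all genes. *Edn1*, *Ednra* and *Agtr1a* had r of -0.03, 0.05 and -0.08. Their RNA replicate SD was 0.87, 0.83 and 1.36 times the counting error. These r can therefore hardly show whether RNA and footprints differed together between pools. The median r over all genes was 0.26. *Ren1* was up to 1.48-fold apart between replicates in RNA-seq and 1.72-fold in RPF-seq, both at ZT22, and *Ace* 1.23-fold and 1.24-fold, both at ZT10. *Ren1* and *Ace* did not move together, with the same direction of the replicate difference in 4 of 12 timepoints in each assay.

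**Figure D4:**
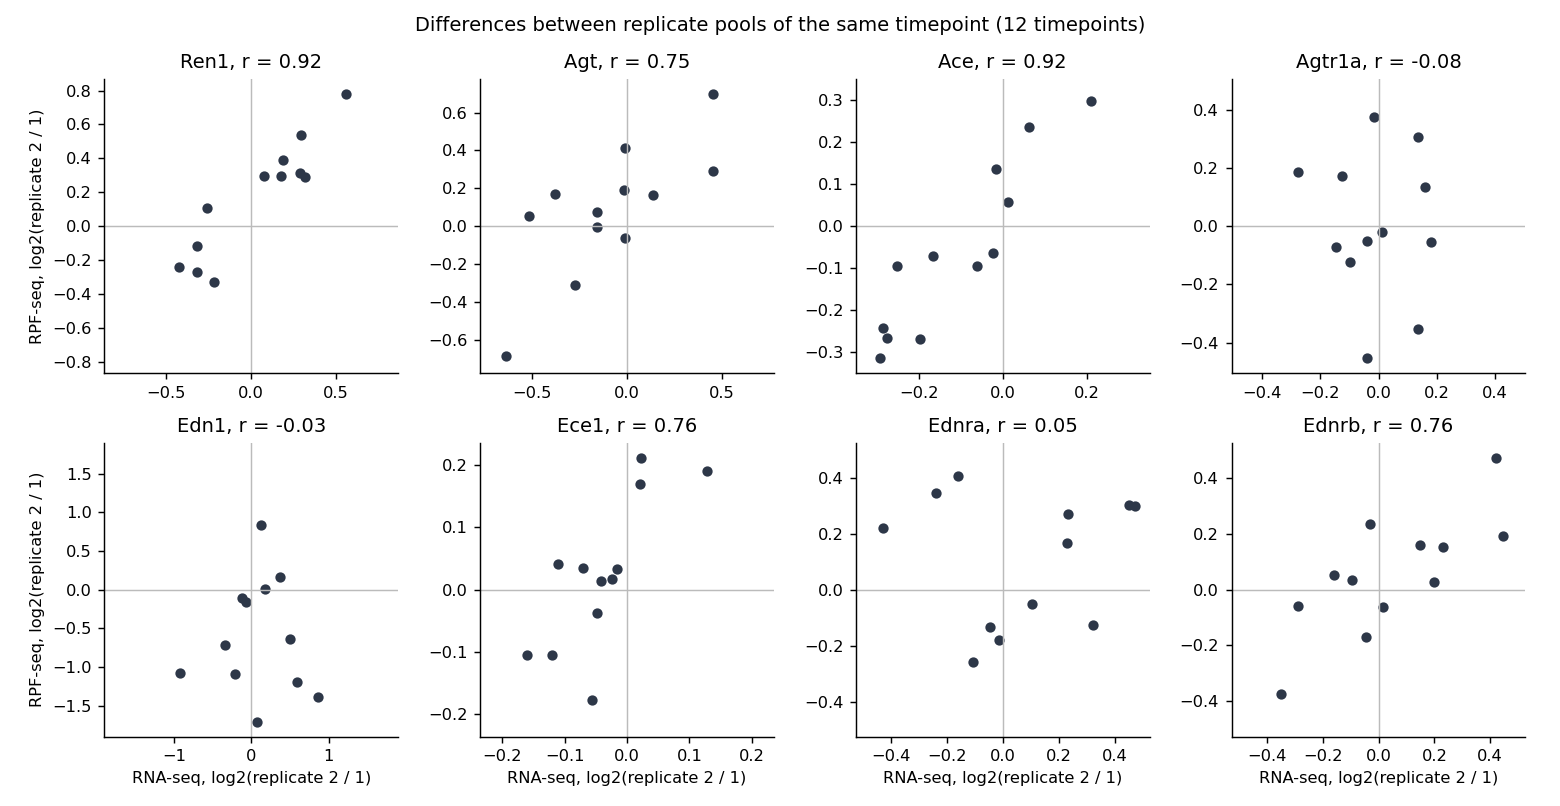
Difference of replicate 2 from replicate 1 at each of 12 timepoints, as log2 of RPKM + 0.1, in RNA-seq (x axis) and RPF-seq (y axis), 1 point per timepoint, with Pearson's r in each title. The points of *Ren1* and *Ace* follow a line (r = 0.92 for each). Those of *Edn1*, *Ednra* and *Agtr1a* have r near 0, with RNA differences close to counting error in size.

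Markers of other cells were set beside these differences. The sum of 9 markers of renin and mural cells moved in the same direction as *Ren1* in 10 of 12 timepoints in RNA-seq and 11 of 12 in RPF-seq, and ran from 111 to 178 RPKM and from 180 to 361 RPKM. The sum of 7 collecting duct markers also went with *Ren1*, in 10 and 11 of 12 timepoints, and was highest in the pool with the most *Ren1*, replicate 2 at ZT16 (446 and 883 RPKM). Other sums went with *Ren1* nearly as often, those of leukocyte markers in 9 and 10 of 12, of podocyte markers in 8 and 9, and of endothelial markers in 9 and 5, whereas the proximal tubule sum did so in 3 and 3. For *Ace*, the sum of 8 proximal tubule markers moved in the same direction in 7 of 12 timepoints in RNA-seq and 11 of 12 in RPF-seq, and the endothelial sum in 3 and 5 of 12. *Kap* alone had a median of 44661 RPKM in RNA-seq and 105584 in RPF-seq, where the proximal tubule sum had 50363 and 115696. The counts for that sum, with *Ren1* as with *Ace*, thus rest mostly on *Kap*. The part of cell composition or dissection in the replicate differences was not tested.

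Of 22 genes of the renin-angiotensin pathway, *Ren1*, *Agt*, *Ace* and *Agtr1a* included, 16 were tested. None passed the rhythm rule with the 1.5-fold minimum in any measure, and at the adjusted p alone 4 passed for RNA, 3 for footprints and 2 for TE, shares below the 48.6%, 30.9% and 17.1% of all genes. *Prcp*, a carboxypeptidase that degrades angiotensin II, had a fold of 1.42 in RNA-seq (peak ZT17.4, limma adjusted p = 1.54e-05) and 1.48 in RPF-seq (ZT16.9, adjusted p = 9.95e-05). *Dpp3*, another angiotensin-degrading peptidase, had folds of 1.23 (ZT7.1) and 1.16 (ZT5.5). *Atp6ap2*, the (pro)renin receptor and a subunit of the vacuolar proton pump, had a fold of 1.39 in RNA-seq (ZT18.5, adjusted p = 4.64e-05) and 1.09 in RPF-seq (adjusted p = 0.264). *Mme* (neprilysin, which cleaves angiotensins and endothelin) had 1.30 in RNA-seq (ZT19.6, adjusted p = 0.00322) and 1.01 in RPF-seq (adjusted p = 0.988). *Thop1*, an oligopeptidase, passed in RPF-seq with a fold of 1.16 (ZT21.8, adjusted p = 0.0321).

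*Agtr1b*, *Agtr2*, *Cma1*, *Ctsg* and *Mrgprd* were not listed in either assay, and *Mas1*, the angiotensin 1-7 receptor, was listed in RNA-seq alone at a median of 0.903 RPKM. Of 8 endothelin pathway genes, 7 were tested and *Edn2* was not listed. *Edn3*, another ligand, was at a median of 3.80 RPKM in RNA-seq, above *Edn1*, with a fitted fold of 1.06 (limma adjusted p = 0.915). *Ece2*, the second converting enzyme, was at 7.72 RPKM, below *Ece1*, with a fold of 1.12 (adjusted p = 0.366). *Ece1*, *Ednrb* and *Mme* passed in RNA-seq, *Ednrb* in RPF-seq and *Mme* in TE at the adjusted p alone. These were 3, 1 and 1 of 7 genes, beside the same all-gene shares of 48.6%, 30.9% and 17.1%.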

How the data were processed

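Kidney RPF-seq and RNA-seq libraries (24 of each) were analysed from the RPKM values that the authors deposited, 1 table per library. The authors trimmed reads with Cutadapt, filtered them by size, mapped them to rRNA, tRNA and mouse cDNA with Bowtie2 2.2.1 and to the genome (GRCm38.p2) with TopHat2 2.0.11, modelled transcripts with Cufflinks 2.2.1, counted reads in coding sequences, applied edgeR's upper quantile normalisation and scaled to RPKM. A change in total mRNA per cell over the day is therefore not visible. The tables hold genes past an expression filter whose value is not given in the sources used here. Groups and replicate numbers come from sample titles.

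The values are not counts, so no count model was fitted. Symbols were taken from the gene name table given (12373 of 12423 IDs matched). Tests used the 11863 genes whose median reached 0.5 RPKM in RNA-seq as well as RPF-seq. Log2(RPKM + 0.1) was fitted with limma 3.58.1 in R 4.3.3 (cosine and sine of 24 h, eBayes with trend, Benjamini-Hochberg over all genes tested, adjusted p under 0.05, fold of at least 1.5), TE as the difference of both assays within a pool, and its level against the median gene of each pool. Fold changes on this scale understate changes of low genes. Read scales were recovered from 6681 genes with 1 coding form (96.5% to 98.5% of values whole within 0.1 read) and give depth alone; the precision they give covers counting error only. Replicate pools are separate pools of 2 mice, and p-values measure the spread between pools. Replicate differences were compared with pandas 2.3.3 and numpy 2.4.6 under Python 3.11.15.

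The rhythm test was run on simulated data with known rhythms in 50 genes of each fold among 11863. Replicate numbers did not pair pools across timepoints on average. Differences between replicates correlated between timepoints at a mean r of 0.03 (RNA) and 0.02 (footprints), with 13 and 10 of 66 pairs over 0.1. Single pairs ran from -0.18 to 0.48 in RNA and from -0.20 to 0.19 in footprints, so some timepoints shared part of their differences. Same-numbered libraries of both assays share a lysate pool. Promoter windows are from RefSeq (GRCm38.p6), and 7 of 8 members matched; positions of genes are from GENCODE vM21.

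The members and lists were chosen with earlier results of these data known, and 1 pathway gene is not reported here. The text names the 8 members, pathway genes that passed a test, those that were not listed, and the 3 RNA profiles most like each member with a 24-h component in RNA-seq; *Edn3*, *Ece2* and the 4 endothelial markers were named in addition, after their values were seen. Alternatives were pseudocounts of 1 and 0.01, no filter or a median of 2 RPKM, quantile normalisation, a replicate block, each replicate series or single pool left out, a 12-h harmonic, timepoint as a factor, AIC choice and centring TE on the mean gene.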

Additional observations from a re-analysis of the deposited data

Results flagged for a closer look

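In 2 pathway genes that are not among the 8 members, TE changed over 24 h at an adjusted p under 0.05 by limma, which is a test that footprints and RNA followed different courses. The peak-to-trough fold of TE was 1.34 for *Atp6ap2* (adjusted p = 0.0102, peak ZT7.4) and 1.30 for *Mme* (adjusted p = 0.0414, peak ZT7.7). Over all genes tested, 17.1% passed the same test. Of 8 proximal tubule markers 5 passed it, and 0 or 1 in each of the other cell type lists. The part of cell types in the TE of these 2 genes was not tested.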

How the results depend on the processing

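No result past its threshold changed direction under an alternative, but the fitted peaks of members that were not called could move by many hours (*Ace* RNA from ZT5.3 to ZT18.0 without replicate 2, at a fold of 1.00). With pseudocount 1, 1 member (*Agtr1a*) had a 24-h component in TE at limma's adjusted p alone (0.0481), where 18.2% of all genes did. With a median RPKM of at least 2 it was again 1 (*Agtr1a*, 0.0428). With that filter, 2 members (*Ren1* and *Agt*) kept a TE off the median gene by 1.5-fold, where 44.7% of all genes had one. *Agtr1a* fell under the fold (log2 0.57). *Ednra* and *Edn1*, with RNA medians of 1.78 and 1.43 RPKM, were below the filter and were not tested there. With a 12-h harmonic, 1 member (*Edn1*) passed the RNA-seq rule with the fold, where 14.8% of all genes did. A component was found for 4 in RNA (*Agtr1a*, *Ece1*, *Edn1*, *Ednrb*), 2 in footprints (*Ece1*, *Ednrb*) and 1 in TE (*Ace*), against 46.6%, 29.4% and 11.4%. With timepoint as a factor, 1 member (*Ednrb*) passed the RPF-seq rule with the fold, where 9.54% of all genes did. The RNA of *Ednrb* did not pass there (limma adjusted p = 0.081) and that of *Agtr1a* did (0.0291). Under AIC choice, which controls no false discovery rate, 4, 3 and 4 members had a component, where 70.9%, 59.8% and 53.6% of all genes did. With Spearman in place of Pearson, 1 member (*Ace*) had agreeing replicate differences, where 1.4% of all genes did. Leaving out a replicate series gave 0 to 1 members past the RNA-seq rule with the fold. The 1 member came without replicate 2, where 12.1% of all genes passed. A component was left in 1 to 2 members in RNA-seq and 0 to 1 in RPF-seq. The lower counts came without replicate 1, where 10.1% and 3.88% of all genes had one, against 48.6% and 30.9% with all pools. Leaving out single pools gave 0 to 1 members past the rule with the fold in RNA-seq and in RPF-seq, 2 to 3 with a component in RNA-seq, and 0 to 1 in TE. In the fits with 1 member past the rule, 10.8% of all genes passed it in RNA-seq and 7.31% to 8.06% in RPF-seq. In those with 1 member having a TE component, 14.3% to 17.7% of all genes had one. With all pools, 2 members had a component in RNA-seq, where 48.6% of all genes did. Leaving out single timepoints gave 2 to 3 members with agreeing replicate differences, beside 2 with all timepoints, where 2.87% of all genes passed. With the replicate block, 2 members had a component in their RNA, 1 in footprints and 0 in TE, and 4 had a TE off the median gene, so it changed no call. The cause of these changes was not tested, except that series left out have 12 pools in place of 24. Depth limits *Edn1* and *Ednra* most, and the footprints of *Edn1* also scattered beyond counting error.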
